A study of Mus musculus with 18 samples.

Results

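The comparison described here is that of CD69+ MHC I high thymocytes that lack HOIL-1 with the same cells of wild-type (WT) mice. It rests on 6 of the 18 samples of the series, which were chosen by their labels for genotype and MHC class I level, 1 sample from each of 3 HoilΔCd4 and 3 WT mice. In HoilΔCd4 mice, Cre recombinase driven by Cd4 regulatory sequences removes a loxP-flanked piece of Rbck1, the gene of HOIL-1, with the promoter and the first 2 exons. Thymocytes pass through a CD4+CD8+ double-positive (DP) stage at which Cd4 is on, so the deletion reaches both later lineages, whereas the other cells of the thymus keep the gene. The mice were of C57BL/6 background and the floxed allele came from 1 targeted embryonic stem cell clone. Their age, and whether the WT mice carried the Cre transgene, were not given in the sources used here. The remaining 12 samples, the CD69+ MHC I low cells of the same 6 mice and both fractions of 3 Sharpincpdm mice (a spontaneous loss-of-function mutation in the gene of another subunit of the same complex, partly C57BL/Ka in background), entered the same fit and are mentioned only beside HoilΔCd4 values.

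HOIL-1 joins the ligase HOIP (Rnf31) and SHARPIN in the linear ubiquitin chain assembly complex (LUBAC), the enzyme that builds chains of ubiquitin linked through their first methionine. Such chains hold the IKK complex at TNF receptor family members and at the antigen receptor, so that IκB proteins are degraded and NF-κB enters the nucleus, and they restrain the cell death that the same receptors can start. In the thymus, CD69 marks cells that have just received a T-cell receptor signal. Surface MHC class I then rises as they mature, which makes CD69+ MHC I high cells the later of the sorted stages.

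The 6 samples held 10577966 to 16266128 counted reads each, with a median of 13365711. Values are given as counts per 1000000 reads (CPM), scaled between samples by the trimmed mean of M-values (TMM), always for mice 1, 2 and 3 in that order. In limma, 12798 genes that reached 0.5 CPM in 3 samples were tested, and a gene was called at an adjusted p-value under 0.05. The p-values measure the spread between these mice only. Calls in MHC I high cells and in the difference between fractions were examined under 20 other settings, among them the omission of each mouse, edgeR, DESeq2 and a fit of female mice only. Calls in MHC I low cells and between the mutants come from the limma fit of all mice alone. The female fit was needed because, by Xist and the chromosome Y gene Ddx3y, the 3 WT mice and HoilΔCd4 mouse 3 were female whereas HoilΔCd4 mice 1 and 2 were male. Within the groups compared, sex and genotype can therefore be told apart only through 1 female HoilΔCd4 mouse, while the Sharpincpdm mice of the same fit, 1 female and 2 male, bear on sex alone.

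The deletion was checked first. Rbck1 (Entrez Gene 24105, chromosome 2, 152316334 to 152332663 of GRCm38, minus strand) stood at 267, 268 and 264 CPM in WT and 3.72, 8.94 and 4.51 CPM in HoilΔCd4 mice. All mutant values lay far under all WT values (log2 fold change −5.55 ± 0.259 SE, adjusted p = 1.44e-07, limma). HoilΔCd4 mouse 2, the highest of the mutants, was also the male sample in which Xist RNA was found at 63.6 CPM, against 2.55 CPM in the other male MHC I high sample and 0.593 CPM in the MHC I low sample of the same animal. Its part in the results was not tested, and counts without this mouse are given below for the main gene groups. The 250 bases before the annotated start of Rbck1, part of the stretch that the deletion was designed to remove, are shown to place it (RefSeq, GRCm38.p6, minus strand, chr2:152332640-152332889, 5′ to 3′, no motif marked).
Rbck1 upstream: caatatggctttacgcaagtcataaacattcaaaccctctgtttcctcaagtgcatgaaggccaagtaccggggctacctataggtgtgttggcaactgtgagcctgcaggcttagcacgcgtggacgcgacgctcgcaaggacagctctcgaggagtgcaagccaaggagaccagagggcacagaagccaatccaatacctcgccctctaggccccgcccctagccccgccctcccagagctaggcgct

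The partners of HOIL-1 in LUBAC were not called. Rnf31 was at 117, 116 and 119 CPM in WT and 106, 104 and 106 CPM in HoilΔCd4 mice (log2 fold change −0.17 ± 0.0607 SE, adjusted p = 0.0865, limma). The mutant values were all lower, by an amount that did not pass the test. Sharpin was at 91.9, 86.5 and 90.8 CPM in WT and 87.7, 81.2 and 82.5 CPM in HoilΔCd4 mice (−0.12, adjusted p = 0.287), with overlapping groups. Of 7 measured genes of LUBAC and of the enzymes that trim its chains, 2 were called, both lower, Rbck1 itself and Otulinl, a relative of the linear-chain deubiquitinase OTULIN (216, 198 and 194 CPM in WT and 184, 169 and 168 CPM in HoilΔCd4 mice; −0.22, adjusted p = 0.0161). These 2 calls make up 28.6% of the list, against 2.81% of all genes called lower. The Otulinl call was lost on leaving out WT mouse 1, WT mouse 3, HoilΔCd4 mouse 2 or HoilΔCd4 mouse 3 (adjusted p from 0.0847 to 0.163), with adjusted p from 0.00818 to 0.163 over the alternatives. On the chromosome, Trib3, a pseudokinase gene at 152337425 to 152344060 just beyond the start of Rbck1, had low counts and was lower in the mutants, at 1.86, 1.51 and 3.38 CPM in WT and 0.531, 0.303 and 0.576 CPM in HoilΔCd4 mice (−2.37, adjusted p = 0.000111). Tbc1d20, the tested neighbour on the other side, was at 61.8, 64.1 and 57.7 CPM in WT and 52.8, 57.1 and 55.1 CPM in HoilΔCd4 mice and was not called (adjusted p = 0.373).

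None of 14 marker genes of the sorted thymocytes was called, and their summed level was 13570, 14680 and 13870 CPM in WT against 13590, 13770 and 13920 CPM in HoilΔCd4 mice. Genes of 2 proteins that the sort gated against were called, however. Cd69 was at 117, 139 and 114 CPM in WT and 120.2, 131 and 161 CPM in HoilΔCd4 mice (0.22, adjusted p = 0.0699). The MHC class I genes H2-K1 and H2-D1 and their light chain gene B2m were not called (adjusted p = 0.115, 0.45 and 0.497). Cd44, whose product was gated against, stood at 29.7, 39.8 and 28.8 CPM in WT and 33.9, 39.1 and 27.2 CPM in HoilΔCd4 mice and was not called (adjusted p = 0.651). Il2ra (CD25), gated against as well, was called lower (−1.10, adjusted p = 0.000142), and Trdc, of the δTCR that was gated against, was called higher (0.38, adjusted p = 0.0394) in a call lost in 12 of the 20 alternatives. Their levels are given below with the lineage genes. Of the lineages gated out, B-cell markers had no called gene among 7 tested, with summed levels from 143 to 163 CPM in WT and from 147 to 171 CPM in the mutants and 3 of 13 markers at 0 throughout. Myeloid and dendritic markers had none among 6 (30.1 to 35.5 against 30.6 to 38.7 CPM, 3 of 23 at 0). Markers of thymic epithelium (6 tested), of erythroid cells and platelets (2) and of stroma and endothelium (4) had none either, nor had 9 X-linked genes that escape silencing.

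Across all genes, 851 were called, 6.65% of those tested, of which 491 were higher (3.84%) and 360 lower (2.81%) in HoilΔCd4 cells. The changes were mostly small. The median size of a called change was 0.40 on the log2 scale, and 53 of the higher and 43 of the lower genes changed by at least 2-fold. The lowest mutant lay above the highest WT value in 10.1% of all genes and the highest mutant under the lowest WT value in 9.45%, and 663 of the 851 called genes had such separate groups. The number of calls depended strongly on the mice, from 134 without WT mouse 3 and 171 without HoilΔCd4 mouse 2 to 1219 without HoilΔCd4 mouse 1. Calls of 5 or fewer genes in a list, given below for completeness, fell by more than 1.5 times in most lists when 1 of the mice WT 1, WT 3, HoilΔCd4 2 or HoilΔCd4 3 was left out. A core of 84 genes, 53 higher and 31 lower, was called under each of the alternatives that gave them a value, and the genes described at length below are mostly of this kind.

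**Figure D1:**
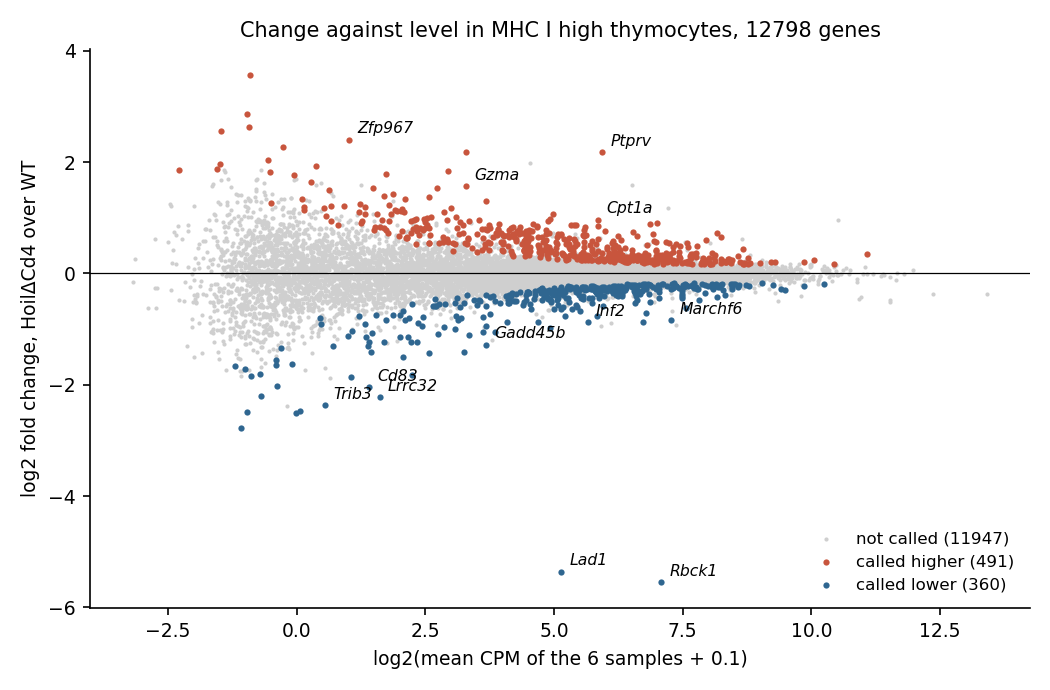
Change against level for the 12798 genes tested in MHC I high thymocytes: the horizontal axis is the mean level of a gene over the 6 samples (CPM, log axis), the vertical axis its log2 fold change in HoilΔCd4 over WT cells, with called genes coloured by direction. Rbck1 lies at the bottom, close to Lad1 (−5.36, called with a standard error of 1.45), and most of the 851 called genes lie within 1 log2 unit of no change.

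The broadest change was in genes of cell division, which were higher in the mutants. Of 80 measured genes of mitosis and G2/M, 56 were called, all higher, 70.0% against 3.84% of all genes, with a median log2 fold change of 0.65 against −0.00027 over all genes. Of 56 genes of DNA synthesis and S phase, 26 were called higher and none lower (46.4%, median 0.32). Of 23 genes of the MCM helicase and of replication licensing, 8 were called higher and none lower (34.8%, median 0.31). Mitotic genes had separate groups, with the mutants higher, in 68 of 80 cases, against 10.1% of all genes. Higher levels of such genes were not particular to HoilΔCd4 mice. Sharpincpdm MHC I high cells also had more Ncaph, Ect2, Rrm1 and Ccnb2 than WT (log2 fold change 0.68, 0.64, 0.42 and 0.63, all called by limma). Mcm2 was not called there (0.225). Directly between the mutants, 0 of 80 mitotic, 0 of 56 S-phase and 1 of 23 licensing genes were called, against 6.73% of all genes. In bulk RNA, more cells in cycle and more RNA of these genes per cell cannot be told apart. The counts depended on single mice. Mitotic calls fell to 29, 20, 18 and 33 without WT mouse 1, WT mouse 3, HoilΔCd4 mouse 2 and HoilΔCd4 mouse 3, S-phase calls to 15, 8, 7 and 13, and licensing calls to 5, 3 and 4 without the first 3 of these mice. The medians were positive under all 20 alternatives (0.55 to 0.71, 0.28 to 0.36 and 0.28 to 0.37).

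**Figure D2:**
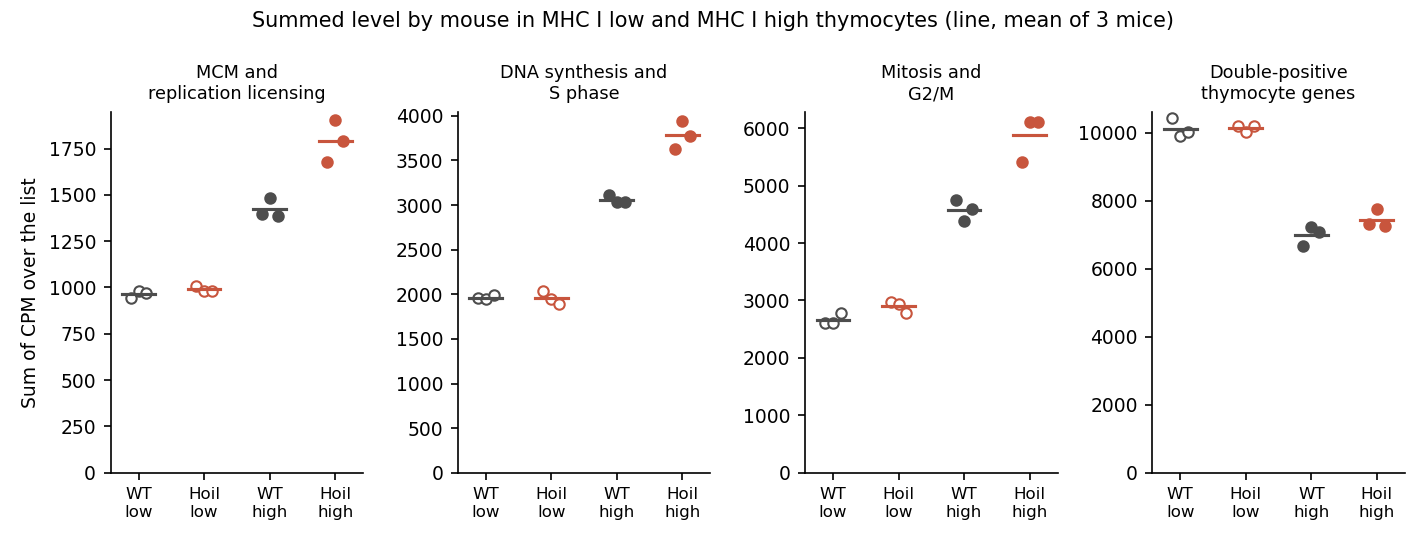
Summed level of the members of 4 gene lists in each mouse (points; CPM, not TMM-scaled; the axis starts at 0) in MHC I low and MHC I high thymocytes of WT and HoilΔCd4 mice, with the mean of 3 mice as a line. For the licensing, S-phase and mitosis lists the HoilΔCd4 MHC I high samples sit above the WT MHC I high samples, whereas in MHC I low samples the gaps are smaller and the genotypes overlap for the licensing and S-phase lists but not for the mitosis list.

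At the level of summed RNA, mitotic genes took 4755, 4377 and 4602 CPM in WT and 5419, 6116 and 6100 CPM in HoilΔCd4 MHC I high cells, without overlap. S-phase genes took 3109, 3031 and 3037 against 3632, 3946 and 3770 CPM. Licensing genes took 1396, 1485 and 1385 against 1679, 1902 and 1791 CPM. In each case HoilΔCd4 mouse 1 was the mutant closest to WT. In the MHC I low fraction the medians of the same lists were 0.21, −0.011 and 0.015. The sums of mitotic genes were 2611, 2613 and 2781 CPM in WT and 2980, 2935 and 2786 CPM in mutant MHC I low cells, again without overlap, and 2 mitotic genes and no gene of the other lists were called higher (0.422% of all genes).

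Among the licensing genes, Mcm3 and Mcm6 encode subunits of the hexameric helicase that is loaded at replication origins. Mcm3 was at 115, 131 and 113 CPM in WT and 156, 184 and 172 CPM in HoilΔCd4 mice (log2 fold change 0.57 ± 0.0761 SE, adjusted p = 2.11e-05, limma). Mcm6 was at 181, 198 and 181 CPM in WT and 236, 274 and 253 CPM in HoilΔCd4 mice (log2 fold change 0.49 ± 0.0683 SE, adjusted p = 2.96e-05, limma). Every mutant exceeded every WT mouse for both, and both were called under all 20 alternatives (highest adjusted p = 0.0132 and 0.0122). Mcm4 was called likewise (0.39, adjusted p = 0.000274). Mcm2 was called (0.49, adjusted p = 0.00146) but lost on leaving out WT mouse 1, WT mouse 3 or HoilΔCd4 mouse 2 (adjusted p from 0.0539 to 0.101), with adjusted p from 0.000264 to 0.101 over the alternatives.

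Of the S-phase genes, Rrm1, the large subunit of the ribonucleotide reductase that makes deoxynucleotides, stood at 94.5, 106 and 98.3 CPM in WT and 132, 159.9 and 148 CPM in HoilΔCd4 mice (log2 fold change 0.59 ± 0.0662 SE, adjusted p = 1.22e-06, limma). Uhrf1, which passes DNA methylation on to new strands, stood at 77.8, 75.2 and 74.6 CPM in WT and 109, 133 and 114 CPM in HoilΔCd4 mice (0.67, adjusted p = 1.58e-05). Hells, a chromatin remodeller that acts in the same process, stood at 46.8, 44.5 and 45.6 CPM in WT and 62.7, 74.5 and 72.3 CPM in HoilΔCd4 mice (0.62, adjusted p = 0.000195). For all of them the groups were separate and the calls held under all alternatives. The catalytic subunit of DNA polymerase alpha, Pola1 (32.7, 35.6 and 32.8 CPM in WT and 46.4, 56.6 and 47.6 CPM in HoilΔCd4 mice; 0.61, adjusted p = 0.000307), and the cell cycle transcription factor E2f2 (56.98, 57.9 and 56.96 CPM in WT and 72.7, 86.9 and 87.8 CPM in HoilΔCd4 mice; 0.54, adjusted p = 0.000294) behaved in the same way.

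Mitotic genes had the largest changes of these groups. Ect2, which with Racgap1 sets the cleavage furrow, was at 21.5, 20.95 and 19.7 CPM in WT and 33.1, 40.3 and 41.8 CPM in HoilΔCd4 mice (log2 fold change 0.94 ± 0.125 SE, adjusted p = 1.46e-05, limma), and Racgap1 at 39.1, 36.01 and 35.4 CPM in WT and 53.2, 61.9 and 57.8 CPM in HoilΔCd4 mice (0.68, adjusted p = 1.46e-05). Ncaph, a condensin subunit, was at 24.9, 26.04 and 26.3 CPM in WT and 36.3, 44.5 and 40.4 CPM in HoilΔCd4 mice (0.65, adjusted p = 2.36e-05). Of the genes added after their values were seen, cyclin B2 (Ccnb2) was at 19.4, 18.8 and 17.4 CPM in WT and 27.5, 33.1 and 36.3 CPM in HoilΔCd4 mice (log2 fold change 0.85 ± 0.135 SE, adjusted p = 0.000145, limma), the kinesin Kif11 at 72.3, 66.8 and 69.7 CPM in WT and 104, 125 and 116 CPM in HoilΔCd4 mice (0.74, adjusted p = 0.000307) and the anaphase activator Cdc20 at 20.7, 15.5 and 17.5 CPM in WT and 24.6, 32.7 and 31.9 CPM in HoilΔCd4 mice (0.76, adjusted p = 0.000388). All of these had separate groups and were called under all alternatives. The most used proliferation markers were less firm: Mki67, also added later, was at 255, 195 and 209 CPM in WT and 315, 396 and 353 CPM in HoilΔCd4 mice (0.73, adjusted p = 0.0194), and its call was lost on leaving out WT mouse 1, WT mouse 2, WT mouse 3, HoilΔCd4 mouse 2 or HoilΔCd4 mouse 3 (adjusted p from 0.0602 to 0.241), as well as without sample weights (0.0706) and with Xist as a covariate (0.0518), with adjusted p from 0.000955 to 0.241 over the alternatives.

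Of 20 measured cell cycle inhibitors and G1 cyclins with their kinases, 3 were called higher and 2 lower, 25% against 6.65% of all genes. The higher genes were Cdk6, Ccnd2 and Ccnd3, which drive cells through G1, and the lower ones the inhibitors Cdkn1b and Cdkn2d. Cdkn1b (p27) was at 230.1, 218 and 217 CPM in WT and 193, 190.3 and 186 CPM in HoilΔCd4 mice (−0.22, adjusted p = 0.00699). This call was lost on leaving out WT mouse 1, WT mouse 3, HoilΔCd4 mouse 2 or HoilΔCd4 mouse 3 (adjusted p from 0.0608 to 0.0923), with adjusted p from 0.00215 to 0.0923 over the alternatives. Of 27 measured replication-dependent histone genes, whose mRNAs mostly lack a poly(A) tail and are poorly captured, 1 was called. Of 28 genes of p53 and its targets, 3 were called higher (10.7% against 3.84% of all genes). Ptprv, whose levels are given below, had the largest change of them (2.17). Another was Gtse1, which is also a G2 gene (10.2, 8.22 and 8.97 CPM in WT and 15.03, 17.96 and 14.8 CPM in HoilΔCd4 mice; 0.80, adjusted p = 0.000406). Of 43 genes of Myc and ribosome production, 1 was called.

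Many mitotic genes share promoter elements that are known to take part in their control in the cell cycle, the CHR element (searched as TTTGAA) together with CCAAT boxes. Licensing genes share E2F sites (searched as TTTGGCGC or TTTCCCGC). Promoter windows from 250 bases before to 50 after the start were present for 9985 of the 12798 genes tested, and both strands were searched. CHR letters were in 45 of 66 windows of the mitosis list (68.2%) against 14.2% of all windows, and CHR and CCAAT together in 54.5% against 5.88%. E2F letters were in 8 of 18 windows of the licensing list (44.4%) and 11 of 44 of the S-phase list (25%) against 3.53% of all. As an example of each class, the 250 bases before the start of Ccnb2 (chr9:70421555-70421804) and Mcm6 (chr1:128359706-128359955) are given from RefSeq, GRCm38.p6, both on the minus strand and 5′ to 3′. Capitals mark the CHR and CCAAT letters in Ccnb2 and the E2F letters in Mcm6. The marked CHR letters of Ccnb2 begin at base −167 from the start, further out than all of its CCAAT letters. Another CHR match of Ccnb2 lay 4 bases after an annotated start, beyond the bases shown. Which of these matches acts in the gene was not tested. A match of letters is a description of the window and does not show binding.
Ccnb2 upstream: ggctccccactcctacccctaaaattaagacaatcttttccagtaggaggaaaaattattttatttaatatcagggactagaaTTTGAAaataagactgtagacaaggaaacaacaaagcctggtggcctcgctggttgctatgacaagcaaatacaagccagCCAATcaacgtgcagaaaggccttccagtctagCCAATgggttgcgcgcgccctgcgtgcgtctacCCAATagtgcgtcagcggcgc
Mcm6 upstream: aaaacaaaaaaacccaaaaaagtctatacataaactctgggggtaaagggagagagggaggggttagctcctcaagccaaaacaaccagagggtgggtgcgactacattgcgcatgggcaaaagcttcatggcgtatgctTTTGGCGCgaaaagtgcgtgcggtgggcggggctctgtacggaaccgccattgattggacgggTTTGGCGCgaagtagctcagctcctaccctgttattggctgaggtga

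The genes that NF-κB itself switches on to limit its own activity and to keep cells alive were lower in the mutants. Of 14 measured feedback and survival targets, 9 were called, all lower (64.3% against 2.81% of all genes, median log2 fold change −0.34). Separate groups, with the mutants lower, were seen in 12, against 9.45% of all genes. Without WT mouse 3 the calls fell to 5. This list of 14 genes was chosen with earlier results of these data known. It holds genes that the paper names as reduced in these cells, such as Nfkbia and Tnfaip3, so its share is not independent support. In MHC I low cells 9 of the 14 were lower as well (median −0.47; 0.563% of all genes), so the change was not confined to the later stage.

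Nfkbia encodes IκBα, which holds NF-κB in the cytoplasm. It stood at 204, 199 and 202 CPM in WT and 159, 149.9 and 161 CPM in HoilΔCd4 mice (log2 fold change −0.37 ± 0.0573 SE, adjusted p = 0.000127, limma). Tnfaip3, the deubiquitinase A20 that shuts the pathway off upstream, stood at 144, 156 and 155 CPM in WT and 111, 108 and 118 CPM in HoilΔCd4 mice (log2 fold change −0.43 ± 0.0608 SE, adjusted p = 2.61e-05, limma). For both, each WT mouse exceeded each mutant by more than the spread within either group, and the calls held under all alternatives (highest adjusted p = 0.0111 and 0.00699). NF-κB letters (GGG and TTTCC spaced by 2 bases, on either strand) were in 12 of 67 windows of the NF-κB target list (17.9%) against 1.95% of all windows, and in 4 of 12 windows of the feedback and survival genes (33.3%). The shares were not larger among the members called lower, at 3 of 20 (15%) and 2 of 8 windows (25%). Of the windows of all genes called lower, 2.93% held the letters. The letters thus describe the lists and not the change. The upstream bases of both genes are shown for their sites (RefSeq, GRCm38.p6, minus strand, 5′ to 3′, chr12:55492648-55492897 and chr10:19015411-19015660), with the matching letters, read on the opposite strand, in capitals.
Nfkbia upstream: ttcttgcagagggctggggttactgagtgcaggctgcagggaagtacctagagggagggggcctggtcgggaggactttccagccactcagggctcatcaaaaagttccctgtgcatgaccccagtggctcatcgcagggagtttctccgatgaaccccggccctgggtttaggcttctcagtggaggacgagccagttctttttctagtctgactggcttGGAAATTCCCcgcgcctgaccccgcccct
Tnfaip3 upstream: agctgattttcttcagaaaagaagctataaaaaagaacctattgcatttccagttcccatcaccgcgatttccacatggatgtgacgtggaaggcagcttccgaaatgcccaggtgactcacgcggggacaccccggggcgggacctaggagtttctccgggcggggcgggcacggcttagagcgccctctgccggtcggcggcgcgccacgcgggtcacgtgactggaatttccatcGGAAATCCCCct

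The largest change in the group was that of Gadd45b, a stress-inducible adaptor of the p38 pathway, at 16.5, 16.8 and 19.7 CPM in WT and 8.96, 5.68 and 8.74 CPM in HoilΔCd4 mice (log2 fold change −1.28 ± 0.136 SE, adjusted p = 1.01e-06, limma). Icam1, the adhesion ligand of LFA-1, was at 65.2, 62.2 and 62.2 CPM in WT and 48.3, 45.5 and 38.5 CPM in HoilΔCd4 mice (log2 fold change −0.53 ± 0.0739 SE, adjusted p = 2.36e-05, limma). Both had separate groups and were called under all alternatives. Bcl2a1d, of the A1 family of survival proteins, was at 6.06, 5.21 and 6.48 CPM in WT and 2.96, 3.26 and 2.21 CPM in HoilΔCd4 mice (−1.14, adjusted p = 0.000225), and its close copy Bcl2a1b at 10.4, 11.6 and 8.55 CPM in WT and 6.76, 7.58 and 5.18 CPM in HoilΔCd4 mice (−0.54, adjusted p = 0.043). Bcl2a1b was lost on leaving out WT mouse 1, WT mouse 2, WT mouse 3, HoilΔCd4 mouse 2 or HoilΔCd4 mouse 3 (adjusted p from 0.0529 to 0.33) and in 2 further settings, with adjusted p from 0.0212 to 0.33 over the alternatives. The copies can share reads, so that their split is uncertain. Relb, an NF-κB subunit and target, was at 104, 107 and 109 CPM in WT and 96.6, 78.3 and 80.2 CPM in HoilΔCd4 mice (−0.36, adjusted p = 0.00128). It was lost on leaving out WT mouse 3 or HoilΔCd4 mouse 2 (adjusted p from 0.0612 to 0.0725), with adjusted p from 9.72e-05 to 0.0725 over the alternatives. Birc3, the ubiquitin ligase cIAP2, was at 122, 117 and 122 CPM in WT and 110.3, 92.97 and 100.4 CPM in HoilΔCd4 mice (−0.27, adjusted p = 0.006). That call was lost on leaving out WT mouse 1, WT mouse 3, HoilΔCd4 mouse 2 or HoilΔCd4 mouse 3 (adjusted p from 0.064 to 0.159) and with female mice only (0.0529), with adjusted p from 0.00133 to 0.159 over the alternatives.

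**Figure D3:**
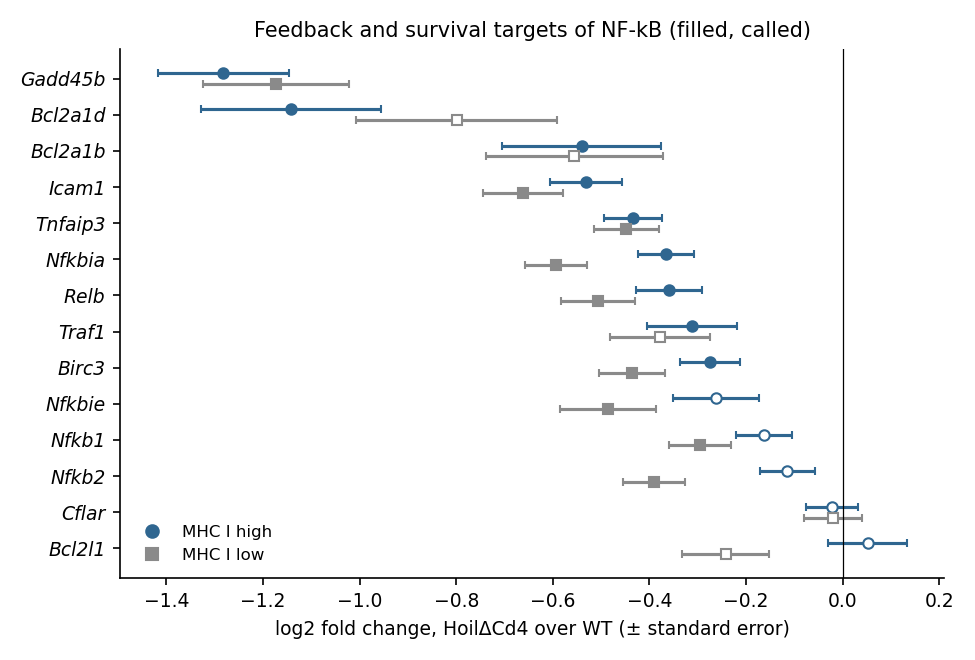
Log2 fold change, HoilΔCd4 over WT, of 14 feedback and survival targets of NF-κB (points, with bars of 1 standard error from limma) in MHC I high and MHC I low thymocytes, filled where the gene was called. Gadd45b and Bcl2a1d lie furthest to the left, and Cflar and Bcl2l1 lie near 0 in MHC I high cells.

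Several other members of the pathway were not called. Nfkbie, another IκB, was at 41.1, 47.9 and 46.8 CPM in WT and 39.9, 39.7 and 34.7 CPM in HoilΔCd4 mice (−0.26, adjusted p = 0.0716). Nfkb1 and Nfkb2, the precursors of p50 and p52, had adjusted p = 0.0827 and 0.23, although both were called lower in the MHC I low fraction (log2 change −0.30 and −0.39). The survival genes Cflar (cFLIP) and Bcl2l1 (BCL-XL) were not called (adjusted p = 0.861 and 0.762). Among 22 subunits and upstream kinases, Relb was the only call. Of 15 feedback inhibitors 4 were lower (2 without WT mouse 1, WT mouse 3 or HoilΔCd4 mouse 3), of 15 members of the BCL-2 family 2 were lower, and of 12 genes of the death-inducing complexes 1 was higher (Apaf1) and 1 lower (Zbp1), neither of which was called with edgeR or DESeq2. The shares called in these lists were, in the order given, 4.55%, 26.7%, 13.3% and 16.7%, against 6.65% of all genes.

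In the wider list of NF-κB targets, 25 of 88 measured genes were called lower and 5 higher (34.1% called against 6.65% of all genes, median −0.13). The lower calls fell to 16, 13, 16 and 16 without WT mouse 1, WT mouse 3, HoilΔCd4 mouse 2 and HoilΔCd4 mouse 3, and the higher ones to 2, 2, 2 and 3. In MHC I low cells 27 were lower and 1 higher, against 0.563% and 0.422% of all genes (median −0.23). Beside the feedback genes, Cd82, a tetraspanin, was at 212, 251 and 223 CPM in WT and 170.0, 156 and 123 CPM in HoilΔCd4 mice (log2 fold change −0.61 ± 0.0793 SE, adjusted p = 2.36e-05, limma). Stx11, a syntaxin of cytotoxic granule release, was at 5.25, 7.03 and 8.21 CPM in WT and 3.87, 2.58 and 2.88 CPM in HoilΔCd4 mice (−1.24, adjusted p = 5.05e-05). Cd74, the invariant chain, was at 27.9, 40.03 and 32.3 CPM in WT and 20.4, 18.3 and 15.2 CPM in HoilΔCd4 mice (−0.88, adjusted p = 0.000326). Each of these had separate groups and held under all alternatives. Cd83 fell from 3.07, 4.39 and 4.83 to 0.987, 0.909 and 1.06 CPM (−2.05, adjusted p = 0.00291). The call was lost on leaving out WT mouse 3 (adjusted p = 0.14), with adjusted p from 0.000165 to 0.14 over the alternatives. The 5 higher targets were Cish, Cxcr4, Cd40lg, Ccnd3 and Ccnd2.

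Receptors of the TNF family were among the lower genes. Of 19 measured members 4 were called, all lower (21.1% against 2.81% of all genes, median −0.19, 2 calls without HoilΔCd4 mouse 2). Tnfrsf18 (GITR), a costimulatory receptor of regulatory and activated T cells, was at 84.9, 85.9 and 87.5 CPM in WT and 66.9, 59.5 and 71.9 CPM in HoilΔCd4 mice (log2 fold change −0.40 ± 0.0646 SE, adjusted p = 0.000195, limma). Tnfrsf4 (OX40), of the same kind, was at 49.5, 56.8 and 58.8 CPM in WT and 40.6, 31.1 and 36.3 CPM in HoilΔCd4 mice (log2 fold change −0.67 ± 0.106 SE, adjusted p = 0.000209, limma). Both had separate groups and were called under all alternatives. Tnfrsf25 was at 31.6, 28.8 and 25.6 CPM in WT and 19.7, 17.6 and 16.3 CPM in HoilΔCd4 mice (−0.64, adjusted p = 0.00691). This call was lost on leaving out WT mouse 1, HoilΔCd4 mouse 2 or HoilΔCd4 mouse 3 (adjusted p from 0.0614 to 0.095), with adjusted p from 0.00014 to 0.095. Tnfrsf9 (4-1BB) was at 101, 113 and 128 CPM in WT and 92.9, 85.2 and 95.5 CPM in HoilΔCd4 mice (−0.37, adjusted p = 0.0165), a call lost on leaving out WT mouse 2, WT mouse 3 or HoilΔCd4 mouse 2 (adjusted p from 0.0724 to 0.321) and with edgeR (0.0944), without sample weights (0.0696) and with female mice only (0.151), with adjusted p from 0.0105 to 0.321. Of 11 ligands of the family only Cd40lg was called, and it was higher (39.9, 54.1 and 45.4 CPM in WT and 55.9, 56.7 and 56.3 CPM in HoilΔCd4 mice; 0.31, adjusted p = 0.00543). That call was lost on leaving out WT mouse 1, WT mouse 3 or HoilΔCd4 mouse 2 (adjusted p from 0.0721 to 0.352) as well as with edgeR (0.0627) and female mice only (0.0616), with adjusted p from 0.000615 to 0.352.

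Genes linked to the regulatory T (Treg) lineage fell in part. Of 21 measured genes 7 were lower and 1 higher (38.1% called against 6.65% of all genes, median −0.21), and 4 were called lower without WT mouse 3. Lrrc32 (GARP), which displays latent TGF-β, was at 4.04, 5.77 and 4.97 CPM in WT and 1.06, 1.06 and 0.864 CPM in HoilΔCd4 mice (log2 fold change −2.22 ± 0.294 SE, adjusted p = 1.46e-05, limma). Il2ra (CD25) was at 13.3, 11.9 and 15.7 CPM in WT and 6.98, 6.895 and 6.05 CPM in HoilΔCd4 mice (log2 fold change −1.10 ± 0.173 SE, adjusted p = 0.000142, limma). In both cases the lowest WT mouse was well above the highest mutant, and the calls held under all alternatives. Cells with CD25 at their surface had been gated out. Penk, the enkephalin precursor, was at 7.68, 5.65 and 7.999 CPM in WT and 2.35, 2.43 and 1.63 CPM in HoilΔCd4 mice (−1.82, adjusted p = 0.0017). The call was lost on leaving out WT mouse 1 or WT mouse 3 (adjusted p from 0.0572 to 0.119), with adjusted p from 2.44e-05 to 0.119. The lineage factors were not called: Foxp3, named here after its values were seen, was at 6.95, 3.58 and 4.34 CPM in WT and 3.34, 2.65 and 3.94 CPM in HoilΔCd4 mice (adjusted p = 0.244) and Ikzf2 (Helios) at 513, 489.6 and 582 CPM in WT and 486, 418 and 537 CPM in HoilΔCd4 mice (adjusted p = 0.218). Ikzf4 (Eos) was lower at 52.2, 44.04 and 53.03 CPM in WT and 40.5, 36.7 and 40.3 CPM in HoilΔCd4 mice (−0.40, adjusted p = 0.00548). This call was lost on leaving out WT mouse 1, WT mouse 3 or HoilΔCd4 mouse 2 (adjusted p from 0.101 to 0.277) and with female mice only (0.1), with adjusted p from 0.00285 to 0.277.

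**Figure D4:**
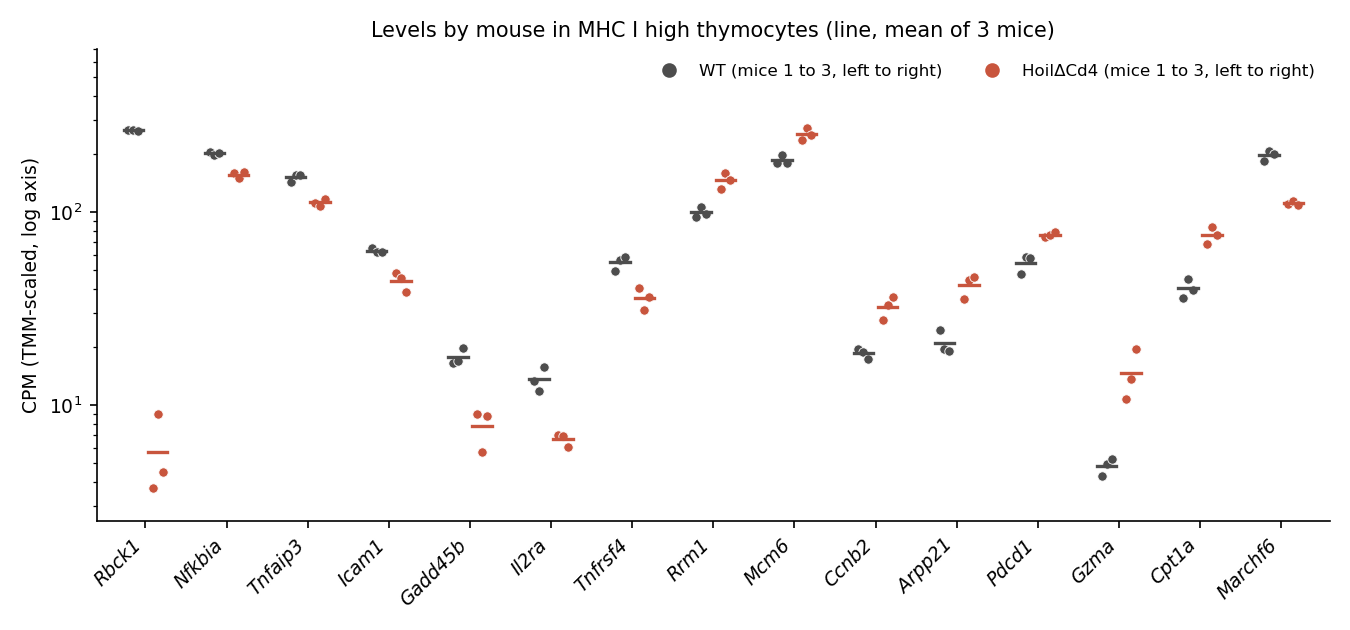
Level of 15 genes in each mouse (points; TMM-scaled CPM, log axis; mice 1 to 3 from left to right) in MHC I high thymocytes of WT and HoilΔCd4 mice, with the mean of 3 mice as a line. In every gene shown the 3 mutant points lie on one side of the 3 WT points, at 3.72 to 8.94 CPM against 264 to 268 CPM for Rbck1.

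Genes of the preceding DP stage were higher in part. Of 27 measured genes 8 were higher and 2 lower (37% called against 6.65% of all genes, median 0.13), and 3, 2 and 4 were called higher without WT mouse 3, HoilΔCd4 mouse 2 and HoilΔCd4 mouse 3. Their summed level was 6667, 7230 and 7064 CPM in WT against 7303, 7756 and 7259 CPM in the mutants, which lay just above all WT mice, and it was 9887 to 10430 CPM in the MHC I low fraction of either genotype. Arpp21, an RNA-binding protein of DP cells, was at 24.5, 19.5 and 19.1 CPM in WT and 35.6, 44.7 and 45.9 CPM in HoilΔCd4 mice (log2 fold change 1.07 ± 0.116 SE, adjusted p = 1.68e-06, limma). The groups were separate and the call held under all alternatives. The recombinase gene Rag2 was at 5.82, 4.64 and 4.55 CPM in WT and 6.83, 12.5 and 13.3 CPM in HoilΔCd4 mice (1.17, adjusted p = 0.00113). It was lost on leaving out WT mouse 3 or HoilΔCd4 mouse 2 (adjusted p from 0.0518 to 0.0698), with adjusted p from 5.23e-05 to 0.0698. Dntt, which adds bases at V(D)J junctions, was at 85.8, 92.98 and 90.1 CPM in WT and 116, 191 and 193 CPM in HoilΔCd4 mice (0.91, adjusted p = 0.00231). That call was lost on leaving out WT mouse 3, HoilΔCd4 mouse 2 or HoilΔCd4 mouse 3 (adjusted p from 0.0532 to 0.0747) and when only the compared groups were fitted (0.0618), with adjusted p from 6.86e-10 to 0.0747. Arpp21 in MHC I low cells was at 27.8, 25.01 and 30.03 CPM in WT and 34.2, 33.6 and 33.3 CPM in HoilΔCd4 mice. Rag2 was there at 7.81, 7.87 and 9.54 against 8.71, 12.3 and 10.1 CPM, and Dntt at 90.5, 94.3 and 87.9 against 99.3, 109 and 117 CPM. In all 3 genes the MHC I high samples of HoilΔCd4 mice 2 and 3 lay above every MHC I low sample of either genotype. HoilΔCd4 mouse 1 was in these 3 genes the mutant closest to WT in MHC I high cells, as it was in the summed level of mitotic genes. The part of remaining DP cells in either group of genes was not tested.

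The machinery of the T-cell receptor held no call. None of 22 genes of the CD3 complex and the proximal kinases was called (median −0.0043), and of 16 genes of the CD4 and CD8 lineages 1 was higher and 1 lower. Cd4 was at 675, 735 and 740.1 CPM in WT and 896, 826 and 752 CPM in HoilΔCd4 mice and Cd8a at 745, 828 and 761 CPM in WT and 675, 857 and 762 CPM in HoilΔCd4 mice (adjusted p = 0.0642 and 0.954). Of 30 genes that respond to receptor signals 4 were higher and 1 lower (16.7% called against 6.65% of all genes, median −0.0029, 2 higher without WT mouse 1 or WT mouse 3). Cd5 and Nr4a1, whose levels follow signal strength, were not called (log2 fold change −0.018 and 0.028, adjusted p = 0.886 and 0.844). Of 30 transcription factors of the T lineage 1 was higher and 1 lower.

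Several inhibitory receptors were called. Of 14 measured co-inhibitory and adenosine receptors and ligands 5 were higher and 2 lower (50% called against 6.65% of all genes), and 2 were called higher with edgeR and without WT mouse 1, WT mouse 3 or HoilΔCd4 mouse 2. Pdcd1 (PD-1) was at 47.5, 58.4 and 57.9 CPM in WT and 74.1, 75.99 and 78.9 CPM in HoilΔCd4 mice (log2 fold change 0.47 ± 0.0724 SE, adjusted p = 0.000111, limma), and Tigit at 1.78, 2.95 and 2.69 CPM in WT and 5.09, 5.304 and 6.53 CPM in HoilΔCd4 mice (log2 fold change 1.16 ± 0.181 SE, adjusted p = 0.000123, limma). The groups were separate and the calls held under all alternatives. The MHC I low fraction also had more of both (log2 fold change 0.35 and 0.79, adjusted p = 0.0248 and 0.0472). Adora2a, a receptor for adenosine, was at 16.6, 20.1 and 17.9 CPM in WT and 22.2, 25.2 and 26.9 CPM in HoilΔCd4 mice (0.49, adjusted p = 0.00468), a call lost on leaving out WT mouse 1, WT mouse 3, HoilΔCd4 mouse 2 or HoilΔCd4 mouse 3 (adjusted p from 0.0865 to 0.16) and with edgeR (0.0572), with adjusted p from 0.0025 to 0.16. Cd274, the PD-1 ligand PD-L1, went the other way, at 70.6, 71.6 and 69.9 CPM in WT and 65.2, 48.1 and 50.7 CPM in HoilΔCd4 mice (−0.41, adjusted p = 0.000886). This call was lost on leaving out HoilΔCd4 mouse 2 (adjusted p = 0.0747), with adjusted p from 1.66e-05 to 0.0747.

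Most genes that rise with the last steps of maturation and exit had negative fold changes. Of 37 measured genes 32 had a negative fold change (median −0.14), but 5 were called lower and 1 higher (16.2% called against 6.65% of all genes). The lower calls fell to 1, 0, 0 and 2 without WT mouse 1, WT mouse 3, HoilΔCd4 mouse 2 and HoilΔCd4 mouse 3. The summed level was 7633, 7956 and 7687 CPM in WT and 7127, 6976 and 6812 CPM in the mutants, without overlap. Ms4a6b, a membrane protein of mature thymocytes, was at 382, 320.1 and 372 CPM in WT and 296, 258 and 285 CPM in HoilΔCd4 mice (−0.40, adjusted p = 0.00643). It was lost on leaving out WT mouse 1, WT mouse 3 or HoilΔCd4 mouse 2 (adjusted p from 0.0508 to 0.245) and in 3 further settings, with adjusted p from 0.00114 to 0.245. The exit genes S1pr1 (the receptor for sphingosine-1-phosphate) and Ccr7 were not called (log2 fold change −0.42 and −0.15, adjusted p = 0.105 and 0.126). None of 8 GIMAP genes was called. Of 15 chemokine and guidance receptors 1 was higher (Cxcr4) and 4 lower.

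Genes of the γδ and innate-like lineages included several higher genes at low levels. Of 26 measured genes 10 were higher and 3 lower (50% called against 6.65% of all genes, median 0.19), and 4, 3, 3 and 4 were called higher without WT mouse 1, WT mouse 3, HoilΔCd4 mouse 2 and HoilΔCd4 mouse 3. Gzma, the protease granzyme A, was at 4.28, 4.96 and 5.24 CPM in WT and 10.8, 13.6 and 19.5 CPM in HoilΔCd4 mice (log2 fold change 1.56 ± 0.285 SE, adjusted p = 0.000886, limma). Sox13, a transcription factor of γδ T cells, was at 4.53, 2.95 and 2.896 CPM in WT and 8.88, 8.79 and 11.2 CPM in HoilΔCd4 mice (log2 fold change 1.53 ± 0.1995 SE, adjusted p = 5.98e-05, limma). Both had separate groups and were called under all alternatives. In WT mice Sox13 was higher in MHC I low cells, at 16.8, 13.4 and 10.01 CPM, unlike Gzma, Trgc1 and Trdc. Sharpincpdm MHC I high cells also had more Sox13 than WT (1.15, adjusted p = 0.00029, limma). The constant-region gene Trgc1 was at 1.13, 1.004 and 1.52 CPM in WT and 2.28, 3.33 and 6.82 CPM in HoilΔCd4 mice (1.53, adjusted p = 0.011), highest in HoilΔCd4 mouse 3. That call was lost on leaving out WT mouse 1, WT mouse 3, HoilΔCd4 mouse 2 or HoilΔCd4 mouse 3 (adjusted p from 0.0688 to 0.258), with adjusted p from 0.00167 to 0.258. Its near copies can share reads, so that it is uncertain. Trdc, the constant region of the δ chain and a gene added after its values were seen, was at 29.3, 23.5 and 26.1 CPM in WT and 30.7, 30.8 and 41.8 CPM in HoilΔCd4 mice (0.38, adjusted p = 0.0394), a call lost in 12 of the 20 alternatives, with adjusted p from 0.00699 to 0.438. Cells with δTCR at their surface had been gated out. Klrd1 (CD94), of natural killer cells, was lower at 3.72, 3.39 and 2.35 CPM in WT and 1.22, 0.455 and 0.768 CPM in HoilΔCd4 mice (−1.86, adjusted p = 0.0084). The call was lost on leaving out WT mouse 1, HoilΔCd4 mouse 2 or HoilΔCd4 mouse 3 (adjusted p from 0.0638 to 0.146) and with female mice only (0.0854), with adjusted p from 0.000314 to 0.146. The part of other cells in these values was not tested.

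Cytokine signalling genes moved in both directions. Of 25 measured cytokine receptor genes 2 were higher and 5 lower (1 lower without WT mouse 1, WT mouse 3 or HoilΔCd4 mouse 2), and of 23 genes of JAK, STAT and SOCS proteins 2 were higher and 2 lower. The shares called were 28% and 17.4%, against 6.65% of all genes. The higher JAK-STAT genes were feedback inhibitors. Cish was at 27.5, 30.9 and 32.3 CPM in WT and 38.1, 42.1 and 56.4 CPM in HoilΔCd4 mice (log2 fold change 0.56 ± 0.113 SE, adjusted p = 0.00226, limma), with its highest level in HoilΔCd4 mouse 3, without which the call was lost (adjusted p = 0.11; from 0.000161 to 0.11 over the alternatives). Socs1 was at 64.7, 79.9 and 68.3 CPM in WT and 83.1, 94.3 and 107 CPM in HoilΔCd4 mice (log2 fold change 0.46 ± 0.0824 SE, adjusted p = 0.000945, limma). This call was lost on leaving out WT mouse 1 or WT mouse 3 (adjusted p from 0.0757 to 0.101) and with edgeR (0.0507), with adjusted p from 4.34e-05 to 0.101. The receptor chain of interleukin 7, Il7r, was lower at 295, 284 and 281 CPM in WT and 248, 237 and 267 CPM in HoilΔCd4 mice (−0.18, adjusted p = 0.0235), a call lost on leaving out WT mouse 1, WT mouse 3 or HoilΔCd4 mouse 2 (adjusted p from 0.154 to 0.236) and in 3 further settings, with adjusted p from 0.00832 to 0.473. Il2rb, shared by the receptors for interleukins 2 and 15, was higher at 131, 143 and 129 CPM in WT and 157, 166 and 154 CPM in HoilΔCd4 mice (0.28, adjusted p = 0.0177). That call was lost on leaving out WT mouse 1, WT mouse 3, HoilΔCd4 mouse 2 or HoilΔCd4 mouse 3 (adjusted p from 0.0636 to 0.362) and in 4 further settings, with adjusted p from 0.00787 to 0.362.

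Interferon-stimulated genes had small negative fold changes almost throughout. Of 74 measured genes 71 had a negative fold change (median −0.22), and 11 were called lower and none higher (14.9% against 2.81% of all genes). The count fell to 4, 3, 1 and 3 without WT mouse 1, WT mouse 3, HoilΔCd4 mouse 2 and HoilΔCd4 mouse 3 and reached 32 over the alternatives. Their summed level was 11900, 12010 and 11530 CPM in WT and 11760, 9277 and 10390 CPM in the mutants. HoilΔCd4 mouse 1 was thus at WT level and mouse 2 the lowest. Irf1 was at 275, 257 and 276 CPM in WT and 244, 206 and 202 CPM in HoilΔCd4 mice (−0.35, adjusted p = 0.000849). The call was lost on leaving out WT mouse 3 (adjusted p = 0.086), with adjusted p from 3.39e-05 to 0.086. Irf7 was at 222, 207 and 193 CPM in WT and 177, 132 and 149.6 CPM in HoilΔCd4 mice (−0.44, adjusted p = 0.00724). This call was lost on leaving out WT mouse 1, HoilΔCd4 mouse 2 or HoilΔCd4 mouse 3 (adjusted p from 0.0644 to 0.138) and with the mouse number as a block (0.0551), with adjusted p from 0.000418 to 0.138.

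Genes of antigen presentation were lower in part. Of 17 measured genes of the MHC class I pathway 3 were lower (17.6% against 2.81% of all genes), namely Psme1, Tapbp and Tap1 (log2 fold change −0.22, −0.23 and −0.20). Among other settings, all of them were lost without WT mouse 3 and without HoilΔCd4 mouse 2 (adjusted p = 0.286 and 0.117 for Psme1, 0.13 and 0.234 for Tapbp, 0.262 and 0.438 for Tap1; ranges over the alternatives from 0.00472 to 0.286, from 0.00996 to 0.234 and from 0.00208 to 0.438). Of 15 non-classical class I genes 1 was higher and 3 lower, but these are near-identical copies whose reads may be shared. Of 10 genes of the class II pathway Cd74 and Ctss were lower.

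Heat shock genes had positive fold changes but varied strongly between mice of either genotype. All 20 measured genes had a positive fold change (median 0.36) and 9 were called (45% against 3.84% of all genes), but only 1, 1, 0 and 2 without WT mouse 1, WT mouse 3, HoilΔCd4 mouse 2 and HoilΔCd4 mouse 3. The summed levels overlapped, at 3675, 4309 and 3680 CPM in WT and 4229, 5883 and 5061 CPM in the mutants, and the median in MHC I low cells was 0.32. Hspa4l was at 55.2, 57.5 and 61.8 CPM in WT and 70.1, 78.7 and 79.5 CPM in HoilΔCd4 mice (0.37, adjusted p = 0.00135, 0.0539 without HoilΔCd4 mouse 2 and from 0.000908 to 0.0539 over the alternatives). The inducible Hsp90aa1 was at 84.4, 107 and 91.3 CPM in WT and 108, 185 and 149.9 CPM in HoilΔCd4 mice (0.70, adjusted p = 0.0161). It was lost on leaving out WT mouse 1, WT mouse 3, HoilΔCd4 mouse 2 or HoilΔCd4 mouse 3 (adjusted p from 0.111 to 0.26) and in 3 further settings, with adjusted p from 0.000221 to 0.26. The letters of the heat shock element (GAA, TTC and GAA spaced by 2 bases each) were in 4 of 15 promoter windows of the list (26.7%) against 0.531% of all. Heat shock genes also respond to handling, and the part of handling in these values was not tested.

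Shares of called genes in the metabolic pathways ran from 3.45% to 13.8%, against 6.65% of all genes. Of 29 genes of glycolysis 3 were higher and 1 lower, of 29 of pyruvate metabolism and the TCA cycle 1 was lower, and of 35 of sterol and fatty acid synthesis 3 were higher. Of 28 genes of fatty acid oxidation 1 was higher and 1 lower, and the higher one was one of the firmest changes of all. Cpt1a, the enzyme that brings long-chain fatty acids into mitochondria, was at 36.1, 45.1 and 39.4 CPM in WT and 68.6, 83.95 and 75.8 CPM in HoilΔCd4 mice (log2 fold change 0.97 ± 0.0907 SE, adjusted p = 1.44e-07, limma). The groups were far apart, and the highest adjusted p over the alternatives was 0.000168. Nnt, the mitochondrial transhydrogenase, was at 39.1, 46.4 and 43.4 CPM in WT and 63.6, 65.8 and 62.5 CPM in HoilΔCd4 mice (log2 fold change 0.57 ± 0.0724 SE, adjusted p = 7.09e-06, limma), also called under all alternatives. Sharpincpdm MHC I high cells had still more Nnt, at 81.2, 85.9 and 85.8 CPM (0.98 against WT, adjusted p = 4.60e-12, limma). Its higher level was thus not particular to HoilΔCd4 mice.

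Of 34 genes of ER-associated degradation and the unfolded protein response 1 was higher (Hspa5) and 2 lower (Trib3 and Marchf6). This share of 8.82% was near the 6.65% of all genes. Marchf6 (chromosome 15, 31455899 to 31531082), a ubiquitin ligase of the ER membrane that removes sterol enzymes, had the smallest p-value of all genes, at 184, 209 and 201 CPM in WT and 111, 114 and 109 CPM in HoilΔCd4 mice (log2 fold change −0.84 ± 0.0602 SE, adjusted p = 1.49e-10, limma). In MHC I low cells the change was of the same size (−0.85, standard error 0.06702). Of 18 genes that respond to glucocorticoids 2 were higher and 2 lower (22.2% called against 6.65% of all genes). Fkbp5, a co-chaperone of the glucocorticoid receptor, was the firmest at 117, 126 and 125 CPM in WT and 152, 189.5 and 191 CPM in HoilΔCd4 mice (log2 fold change 0.55 ± 0.0609 SE, adjusted p = 1.01e-06, limma).

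Among other genes called under all alternatives was Ptprv (23.8, 19.1 and 21.9 CPM in WT and 88.8, 81.9 and 131 CPM in HoilΔCd4 mice; log2 fold change 2.17 ± 0.178 SE, adjusted p = 8.87e-06, limma), annotated as a transcribed pseudogene of a receptor phosphatase. Higher too were Anxa2, a membrane-binding annexin (30.3, 30.2 and 29.7 CPM in WT and 47.5, 56.7 and 57.2 CPM in HoilΔCd4 mice; 0.86, adjusted p = 1.28e-05), the histone methyltransferase Nsd2 (107, 102 and 102 CPM in WT and 135, 164 and 153 CPM in HoilΔCd4 mice; 0.56, adjusted p = 4.44e-06) and Ahr, the aryl hydrocarbon receptor and a gene added after its values were seen (11.2, 9.41 and 11.5 CPM in WT and 17.4, 16.5 and 21.3 CPM in HoilΔCd4 mice; 0.72, adjusted p = 0.000808). Lower were Inf2, an actin-nucleating formin (67.2, 62.2 and 64.6 CPM in WT and 38.95, 31.97 and 36.8 CPM in HoilΔCd4 mice; −0.88, adjusted p = 1.26e-07), the tetraspanin Tspan9 (139, 147 and 127 CPM in WT and 88.8, 77.1 and 81.1 CPM in HoilΔCd4 mice; −0.71, adjusted p = 1.68e-06), Gramd3 (74.4, 68.3 and 70.96 CPM in WT and 42.9, 36.9 and 46.6 CPM in HoilΔCd4 mice; −0.77, adjusted p = 5.59e-06), and Colq, a collagen tail of acetylcholinesterase (68.1, 66.7 and 84.1 CPM in WT and 50.7, 49.2 and 53.9 CPM in HoilΔCd4 mice; −0.59, adjusted p = 8.87e-06). In each of them the groups were separate. At lower levels, Drc1, a component of cilia, was at 4.04, 1.57 and 3.72 CPM in WT and 11.2, 12.4 and 12.2 CPM in HoilΔCd4 mice (1.83, adjusted p = 0.000576). Slc6a19, a transporter of neutral amino acids, was at 14.9, 9.599 and 16.1 CPM in WT and 4.1, 5.91 and 6.14 CPM in HoilΔCd4 mice (−1.41, adjusted p = 8.73e-05). Both were called under all alternatives. Rab17, a small GTPase gene added after its values were seen, was at 0 CPM in all WT mice and at 0.835, 0.5304 and 1.25 CPM in the mutants, and no fold is given for it.

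**Figure D5:**
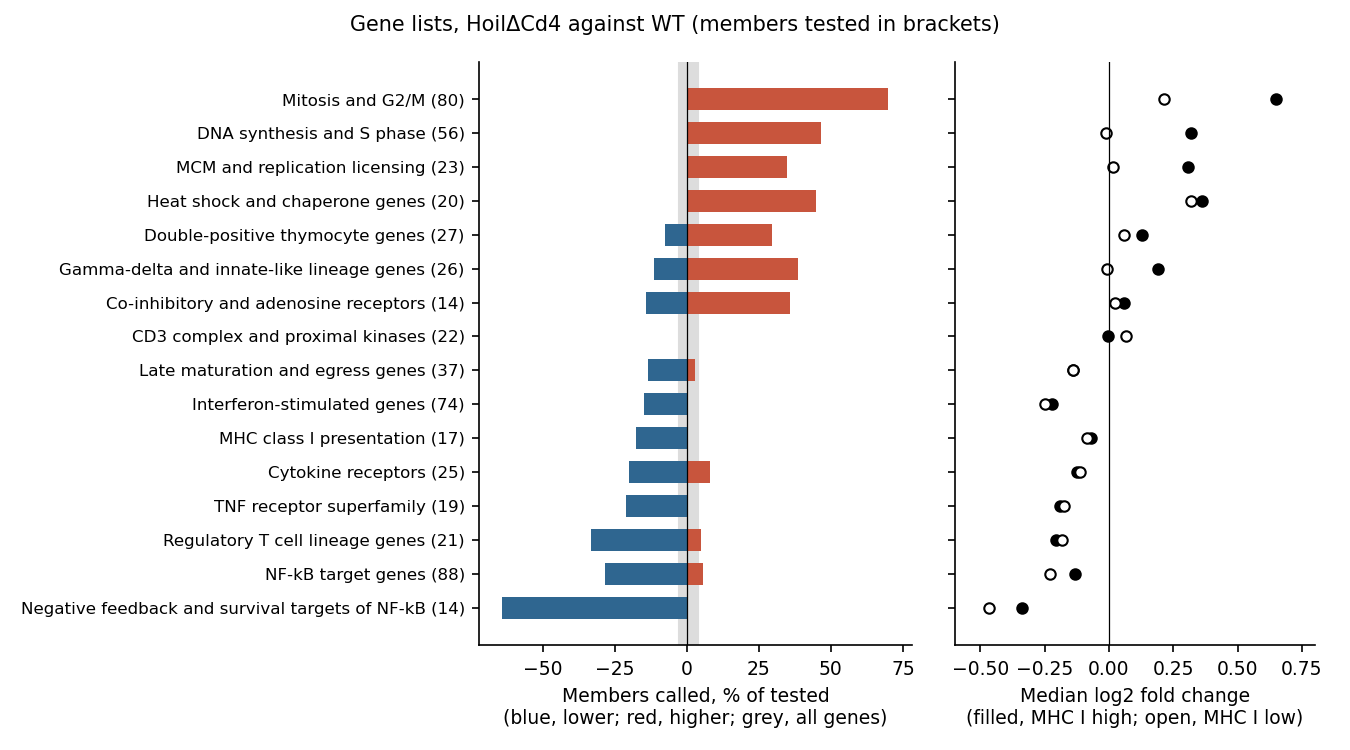
Gene lists in the comparison of HoilΔCd4 with WT cells: on the left, the percentage of measured members called higher (to the right) and lower (to the left) in MHC I high cells, with the shaded band giving the 3.84% and 2.81% of all genes, and on the right the median log2 fold change of the members in MHC I high (filled) and MHC I low cells (open). The mitosis list reaches furthest to the right and the feedback and survival targets of NF-κB furthest to the left.

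Whether the effect of HOIL-1 loss was particular to MHC I high cells was tested as the difference between the effects in both fractions of the same mice. In MHC I low cells 126 genes were called (0.985%), of which 68 were called in the same direction and none in the opposite direction in MHC I high cells. The difference itself was called for 51 genes (0.398%), 38 with the more positive effect in MHC I high cells (0.297%) and 13 with the more negative one (0.102%), and 1338 genes had an unadjusted p under 0.05. This count was not stable. It was 1 with edgeR (716 genes at an unadjusted p under 0.05), 20 with DESeq2 and 0 without WT mouse 3 or HoilΔCd4 mouse 3, so the differences that follow hold for limma with all mice.

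Cell division genes were prominent among them. Hells was at 14.4, 14.1 and 14.2 CPM in WT and 10.8, 13.7 and 12.6 CPM in mutant MHC I low cells, where it was not called, and the effects differed by 0.84 (standard error 0.133, adjusted p = 0.00422, limma; 0.00213 to 0.134 over the alternatives). The effects on Uhrf1 and Rrm1 differed by 0.69 and 0.51 (adjusted p = 0.00489 and 0.00489, limma; up to 0.136 and 0.14 over the alternatives), and those on Mcm3 by 0.53 (0.0124, up to 0.337). Of the whole lists, 6 of 56 S-phase genes, 3 of 23 licensing genes and 2 of 80 mitotic genes were called in this test. All had the more positive effect in MHC I high cells, as had 0.297% of all genes. None of the 14 feedback and survival targets of NF-κB was called. With 0.398% of all genes called, so short a list cannot show that their effects were equal in both fractions.

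Other genes also differed between the fractions. Cish was at 15.1, 14.7 and 15.1 CPM in WT and 10.6, 11.5 and 12.96 CPM in mutant MHC I low cells and was not called there (−0.36, adjusted p = 0.216). Its effects differed by 0.92 (adjusted p = 0.00422, limma; 0.00279 to 0.0689). For Cxcr4, the receptor for CXCL12, the change was 0.46 in MHC I high and −0.23 in MHC I low cells (difference 0.69, adjusted p = 0.00805; 0.000196 to 0.152), and its MHC I high call was lost without HoilΔCd4 mouse 3 (adjusted p = 0.112; from 3.26e-05 to 0.112 over the alternatives). Pim1, a kinase gene induced by cytokines, was lower in MHC I low mutants (41.9, 41.6 and 44.1 against 29.6, 30.02 and 25.5 CPM) and equal within 1 standard error in MHC I high cells (31.9, 27.8 and 29.7 against 31.1, 29.7 and 31.3 CPM), a difference of 0.63 (adjusted p = 0.00805, limma; 0.0033 to 0.153). In the opposite direction, Sh3bgrl2 and Man1c1 were higher in MHC I low mutants (change of 2.11 and 1.47) and not called in MHC I high cells (0.16 and 0.14; difference −1.95 and −1.33, adjusted p = 0.00481 and 0.00805, up to 0.111 and 0.111). Myc, Bcl6 and Slc2a3, called in MHC I low cells, were not called in MHC I high cells (log2 fold change 0.027, −0.04 and −0.10) nor in the difference (adjusted p = 0.0562, 0.0735 and 0.357).

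HoilΔCd4 and Sharpincpdm MHC I high cells were set against each other directly, since their comparisons with WT share the WT mice. By limma 861 genes differed (6.73%), of which 3.71% of all genes were higher and 3.02% lower in HoilΔCd4 cells. The feedback genes Nfkbia and Tnfaip3 were not called between the mutants (log2 difference 0.035 and −0.12, standard error 0.0581 and 0.0616, adjusted p = 0.779 and 0.259), and neither were Il2ra (0.0099, 0.983), Rrm1 (0.17, 0.131) or Ccnb2 (0.23, 0.358). HoilΔCd4 cells had more Pdcd1, at 74.1, 75.99 and 78.9 against 55.6, 47.6 and 45.2 CPM (0.65, standard error 0.0733, adjusted p = 5.00e-07), more Cish, at 38.1, 42.1 and 56.4 against 21.96, 19.8 and 19.7 CPM (1.17, adjusted p = 2.88e-08), and more Ahr (1.01, 6.54e-06). They had less Marchf6, at 111, 114 and 109 against 204, 198 and 179.5 CPM (−0.81, adjusted p = 6.93e-11), and less Il7r, at 248, 237 and 267 against 332, 349.9 and 328 CPM (−0.44, adjusted p = 6.18e-07). Cpt1a was higher in HoilΔCd4 cells as well (0.62, adjusted p = 7.44e-05). The Sharpincpdm mice were not fully C57BL/6 and lack SHARPIN in all cells, so that the mutants differ in more than the subunit lost.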

How the data were processed

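RNA of CD69+ MHC I high and low thymocytes of 3 WT, 3 HoilΔCd4 and 3 Sharpincpdm mice was sequenced by the authors (TruSeq, 75-base single reads), aligned to mm10 with Rsubread and counted per gene with featureCounts. The values deposited are whole-number counts per gene, not normalized. The featureCounts version and its settings for strand and multi-mapped reads were not given in the sources used here, so reads of near-identical copies and of antisense genes cannot be told apart. Entrez Gene identifiers were matched to RefSeq (GRCm38.p6) for 25275 of 27179 genes. The 1904 unmatched genes, with 0.655% of the counts, were left out.

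Genes with at least 0.5 CPM in 3 of the 18 samples were kept, without predicted genes. log2 CPM (edgeR 4.0.16, TMM, prior count 1) were fitted in limma 3.58.1 (R 4.3.3) with 6 groups, array weights, mouse as a random block (correlation 0.224) and robust trended variances, as in the study's methods. P-values were adjusted after Benjamini and Hochberg over all 12798 genes. The fractions of 1 mouse deviated together from their group means in all 9 mice (correlation 0.0703 to 0.256), which is the ground for that block. Alternatives were edgeR, DESeq2 1.42.0, other filters, scaling and prior counts, no weights, no block, a fixed block of mouse numbers, a fit of the compared groups alone, Xist as a covariate, female mice only and each mouse left out. Scripts were tested on simulated counts. No 2 samples of 1 group agreed within counting noise.

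The gene lists and the members described were chosen with earlier results of these data known. Named genes were those of LUBAC and the sort, genes that the study discusses, the 15 of smallest p-value and 10 of largest fold change in each direction with separate groups, up to 6 called and 4 uncalled members of each list, the 10 of smallest p-value in the difference between fractions, and the neighbours of Rbck1. Genes outside this rule, named after their values were seen, were Ccnb2, Cdc20, Kif11, Mki67, Foxp3, Trdc, Ahr, Rab17, Rnpep, Zfp970, Zcchc3, Tpx2, Ctps, Gart, Cad and Mthfd1, with Xist and Ddx3y for the sex of the mice. Some members of the lists are not reported here.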

Additional observations from a re-analysis of the deposited data

Results flagged for a closer look

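For 24 of the genes named, the effect of HOIL-1 loss differed between MHC I high and MHC I low cells in the limma test of the difference. The values are the log2 fold change in MHC I high minus that in MHC I low cells, each with its highest adjusted p over the alternatives. 0.398% of all genes were called in this test. Each of these calls was lost without WT mouse 3 and without HoilΔCd4 mouse 3, and each but that of Rbck1 was lost with edgeR.

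Genes of cell division had the more positive effect in MHC I high cells: Hells by 0.84 (0.134), Uhrf1 by 0.69 (0.136), Rrm1 by 0.51 (0.14), Mcm2 by 0.54 (0.596), Mcm3 by 0.53 (0.337), Mcm4 by 0.37 (0.458) and Gtse1 by 0.81 (0.319). The difference for Mcm2 was lost in 15 of 20 alternatives and that for Gtse1 in 14. Genes of nucleotide synthesis, named after their values were seen, were Ctps, at 0.48 (0.322), Gart, at 0.31 (0.465), Cad, at 0.32 (0.607), and Mthfd1, at 0.43 (0.475).

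Genes of cytokine and chemokine signalling were Cish, at 0.92 (0.0689), Cxcr4, at 0.69 (0.152), Pim1, at 0.63 (0.153), and Cd40lg, at 0.43 (0.381). Fkbp5 differed by 0.43 (0.209), Arpp21 by 0.78 (0.338) and Gzma by 1.93 (0.241). Gzma in MHC I low cells was at 1.47, 1.41 and 1.88 CPM in WT and 1.598, 0.692 and 1.43 CPM in HoilΔCd4 mice, with overlapping groups.

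The more negative effect in MHC I high cells was that of Sh3bgrl2, at −1.95 (0.111), Man1c1, at −1.33 (0.111), Klrd1, at −2.50 (0.826), Tspan9, at −0.48 (0.309), and Colq, at −0.49 (0.292).

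Rbck1 differed by 3.07 (standard error 0.342, adjusted p = 0.00422, limma; 4.76e-18 to 0.0609). In MHC I low cells it stood at 229, 221 and 217 CPM in WT and at 0.581, 0.779 and 0.271 CPM in HoilΔCd4 mice, so that each mutant held more Rbck1 RNA in its MHC I high than in its MHC I low sample. HoilΔCd4 mouse 2, with the highest value of 8.94 CPM, was the male sample with Xist at 63.6 CPM, and the part of this in the value was not tested.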

How the results depend on the processing

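Of the 98 named genes called, 53 were called under each of the 20 alternatives that gave a value. The others were lost most often without WT mouse 3 (38 genes), HoilΔCd4 mouse 2 (37), WT mouse 1 (34) or HoilΔCd4 mouse 3 (28), and 20 were lost with edgeR, 11 with DESeq2 and 16 with female mice only. None of the calls changed direction. The 851 calls in MHC I high cells became 404 with edgeR, 484 with DESeq2, 453 without a filter on low counts and 314 without sample weights, and ran from 134 to 1219 with 1 mouse left out. With female mice only, 722 were called, 48.5% of them higher against 57.7% with all mice, and the lone HoilΔCd4 mouse was then assumed to vary like the other groups. The 51 genes that differed between fractions became 1 with edgeR, 20 with DESeq2, 1 without the filter, 29 without weights, 23 with only the groups compared and 0 to 42 with 1 mouse left out. The cause of these changes was not tested. Of 500 counts of list members recomputed, 152 moved by more than 1.5 times. Beside the omission of mice, the 56 mitotic calls fell to 37 without the filter and without weights, the 26 S-phase calls to 16 without weights, and the 9 heat shock calls to 2 with edgeR and 1 without weights.

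Deviations of same-numbered HoilΔCd4 and WT samples correlated at 0.119, 0.153 and 0.00553 for mice 1, 2 and 3. Those of differently numbered samples correlated at −0.159 to 0.0382. Whether the numbers pair mice across the genotypes was not tested. With the mouse number as a replicate block, 624 genes were called in MHC I high cells and 8 in the difference between fractions; with no replicate block, 796 and 6.

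Depth limits the low genes. Genes near 1 CPM in WT mice, such as Trgc1 or Tnnt2, rest on few reads per sample, and intervals from counting would cover counting error only.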

Other observations

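Some genes of nucleotide synthesis had a more positive effect in MHC I high than in MHC I low cells. They were named after their values were seen, and no list of them was tested. Ctps, which makes CTP, was at 36.6, 42.5 and 41.3 CPM in WT and 45.5, 49.4 and 44.2 CPM in HoilΔCd4 mice, and the effects differed by 0.48 (adjusted p = 0.0176, limma). Gart, of purine synthesis, was at 114, 129.6 and 118 CPM in WT and 134, 139 and 133 CPM in HoilΔCd4 mice (difference 0.31, 0.0441). Cad, of pyrimidine synthesis, was at 134, 138 and 135 CPM in WT and 142, 156 and 143 CPM in HoilΔCd4 mice (difference 0.32, 0.0441), and Mthfd1, of the folate cycle, at 76.4, 90.9 and 76.6 CPM in WT and 91.7, 89.8 and 90.7 CPM in HoilΔCd4 mice (difference 0.43, 0.0234).

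At 3 places in the genome, called genes were counted among their neighbours. The places were chosen after the calls were seen, and the first begins and ends at called genes, so that the counts are descriptions only. No scan of the genome was made, and 6.65% of all genes were called. On chromosome 1, between 135108498 and 135852268 of GRCm38, 4 of 12 tested genes were called. Ptprv was higher, and 3 were lower. Lad1 was at 58.1, 68.8 and 65.4 CPM in WT and 8.35, 9.02 and 0 CPM in HoilΔCd4 mice (−5.36, standard error 1.45, adjusted p = 0.0472, limma; from 1.32e-24 to 0.338 over the alternatives). Its call was lost on leaving out WT mouse 1, WT mouse 2, WT mouse 3 or HoilΔCd4 mouse 2 (adjusted p from 0.0872 to 0.338). Tnnt2 was at 1.37, 1.44 and 1.66 CPM in WT and 0.683, 0.5304 and 0 CPM in HoilΔCd4 mice (−2.48, adjusted p = 0.0128; from 6.76e-05 to 0.272), lost on leaving out WT mouse 1, WT mouse 3 or HoilΔCd4 mouse 3 (adjusted p from 0.129 to 0.272). HoilΔCd4 mouse 3 was at 0 in both, whereas the other mutants were at intermediate levels. Rnpep, also lowest in that mouse, was at 45.7, 55.8 and 46.5 CPM in WT and 31.96, 40.5 and 22.6 CPM in HoilΔCd4 mice (−0.63, adjusted p = 0.0196; from 4.15e-07 to 0.158), lost on leaving out WT mouse 1, WT mouse 2 or WT mouse 3 (adjusted p from 0.0568 to 0.145).

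On chromosome 2, between 175372034 and 178035859, 4 of 6 tested zinc-finger genes were called. Zfp967 was at 0.647, 0.314 and 0.621 CPM in WT and 3.26, 4.09 and 2.59 CPM in HoilΔCd4 mice (2.40, adjusted p = 7.09e-06) and Zfp971 at 45.7, 28.6 and 44.4 CPM in WT and 22.02, 19.8 and 21.8 CPM in HoilΔCd4 mice (−0.98, adjusted p = 2.06e-05), both called under all alternatives. Zfp966 was higher and Zfp970 lower (1.92 and −0.79), and the Zfp970 call was lost on leaving out WT mouse 1, WT mouse 3, HoilΔCd4 mouse 1, HoilΔCd4 mouse 2 or HoilΔCd4 mouse 3 (adjusted p from 0.0606 to 0.412), with adjusted p from 0.00405 to 0.412 over the alternatives. In Sharpincpdm MHC I high cells Zfp966, Zfp967, Zfp970 and Zfp971 changed in the same directions (log2 fold change against WT 1.86, 2.01, −0.84 and −1.11). These genes are close copies of one another and can share reads, so that their levels are uncertain.

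Within 1 Mb of Rbck1, 4 of 24 tested genes were called, namely Rbck1 and Trib3, lower, and Tpx2 and Zcchc3, higher. Tpx2, a spindle protein of the mitosis list, was at 29.5, 27.8 and 28.8 CPM in WT and 44.3, 55.8 and 53.8 CPM in HoilΔCd4 mice (0.87, adjusted p = 0.00071), and Zcchc3 at 0.808, 1.07 and 0.828 CPM in WT and 1.52, 2.88 and 1.82 CPM in HoilΔCd4 mice (1.21, adjusted p = 0.0221; from 0.0151 to 0.318 over the alternatives). The Zcchc3 call was lost on leaving out WT mouse 1, WT mouse 3, HoilΔCd4 mouse 2 or HoilΔCd4 mouse 3 (adjusted p from 0.104 to 0.318).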
